A study of Mus musculus with 8 samples.

Results

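Small ribosomal subunit assembly factors are proteins that build the small subunit of the ribosome without becoming part of it. 47 of them, chosen by name as components of the small-subunit (SSU) processome or as later maturation factors, were followed in acute myeloid leukaemia (AML) cells from mice given AG636. All 47 were found in the count table of 54838 genes, and all 47 were among the 10911 genes with enough counts to be tested. The cells carried the RUNX1-RUNX1T1 fusion on a C57BL/6 background and grew in Ptprca recipient mice, which the labels describe as sublethally irradiated. The 4 Vehicle samples came from mice given vehicle alone, and the 4 AG636 samples came from mice dosed b.i.d. by oral gavage with 100 mg/kg of AG636, an inhibitor of the pyrimidine synthesis enzyme DHODH. Treatment lasted a single day per the figure legend for this model. Both groups carried the same fusion, background and transplant. Cells were sorted from bone marrow and spleen for high cKit, and the labels do not tie a sample to a tissue. It is not stated whether each sample was a separate mouse, and fewer mice than samples per group are named for this model, so the errors and p-values measure the spread between these samples, which may share a mouse. The model is a transplanted tumour from frozen cells of a moribund mouse, and only cells that passed the sort were measured.

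Ribosome assembly starts in the nucleolus, where RNA polymerase I transcribes a long precursor of the ribosomal RNAs. Factors load on the 5′ end of that precursor while it is being made: the UTP-A complex first, then the U3 snoRNP, UTP-B and many single proteins, which together form the SSU processome, fold the RNA and guide its first cleavages. The particle that leaves the nucleolus is then exported and finished in the cytoplasm by a smaller set of kinases, GTPase-like proteins and nucleases. Dividing cells, leukaemic cells among them, express these factors at a high level because each division needs a new set of ribosomes, and MYC is a known activator of many of them.

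RNA for the assembly factors was lower after AG636. The log2 fold change of AG636 over Vehicle was negative for 44 of 47 factors, against 50.6% of all tested genes, and its median was -0.54 for the factors and -0.0056 for all tested genes. 34 of 47 factors (72.3%) fell past an adjusted p of 0.05 in limma-voom and none rose, while 8.49% of all tested genes fell and 14.0% changed in either direction. In 36 of 47 factors every AG636 sample lay below every Vehicle sample, a separation seen in 12.9% of all tested genes. Changes were moderate: 43 of 47 factors changed by less than 1 log2 unit, and the remaining 4 were Rrp12 (-1.16), Wdr46 (-1.13), Tsr1 (-1.12) and Nat10 (-1.03). Levels are given as CPM, read counts scaled to the library size after TMM adjustment and so a share of each library, so that less RNA of these genes in each cell and fewer cells that express them cannot be told apart. The 3′ end reads count transcripts with little dependence on length, which lets levels of different genes be set side by side approximately.

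The promoters of the 3 factors with the smallest p-values are shown because the factors moved together and their start regions can be searched for shared motifs. Each is the 300-base RefSeq window (GRCm38.p6) from 250 bases before the transcription start to 50 bases after it, written 5′ to 3′ on the strand of the gene. Capitals mark the motifs searched, which were the E-box CACGTG bound by MYC and related factors, CCGGAAGT bound by ETS factors, AAGATGGC as a core of the YY1 motif, and the palindromic TCTCGCGA, all on both strands.
Tsr1, chr11:74897830-74898129, plus strand: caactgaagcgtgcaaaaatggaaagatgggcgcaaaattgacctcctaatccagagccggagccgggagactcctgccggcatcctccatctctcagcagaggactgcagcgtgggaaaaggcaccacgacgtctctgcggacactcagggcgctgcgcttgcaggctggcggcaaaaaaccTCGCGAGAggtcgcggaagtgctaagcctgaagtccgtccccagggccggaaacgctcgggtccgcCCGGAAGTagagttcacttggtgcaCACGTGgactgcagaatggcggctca
Imp4, chr1:34439579-34439878, plus strand: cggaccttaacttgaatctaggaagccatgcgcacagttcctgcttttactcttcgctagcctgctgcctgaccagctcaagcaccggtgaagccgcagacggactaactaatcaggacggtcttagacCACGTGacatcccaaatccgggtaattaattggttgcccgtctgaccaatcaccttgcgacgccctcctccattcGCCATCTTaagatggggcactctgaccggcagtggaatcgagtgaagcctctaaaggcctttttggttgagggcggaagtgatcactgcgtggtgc
Nat10, chr2:103761221-103761520, minus strand: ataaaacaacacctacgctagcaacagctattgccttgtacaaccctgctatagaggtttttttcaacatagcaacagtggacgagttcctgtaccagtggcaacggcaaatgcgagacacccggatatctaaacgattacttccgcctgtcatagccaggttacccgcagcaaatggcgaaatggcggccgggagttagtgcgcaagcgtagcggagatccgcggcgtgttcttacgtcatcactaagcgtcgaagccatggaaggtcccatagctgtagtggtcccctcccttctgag
The Tsr1 window held the E-box at bases 275 to 280, the ETS motif at bases 250 to 257 across the start, and the palindrome on the reverse strand at bases 184 to 191. In the Imp4 window the E-box lay at bases 130 to 135 and the YY1 core on the reverse strand at bases 205 to 212. The Nat10 window held no exact match to any of the motifs searched, and near matches were not searched. All 3 windows hold GCGGAAGT on either strand, which differs from the ETS motif in its first base and is not marked.

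The depth was similar between groups, at 6586446 to 7162036 counts in Vehicle and 6120030 to 6610360 in AG636 samples, and mitochondrial transcripts took 7.59 to 8.10% and 5.74 to 8.28% of counts. Vehicle sample 4 and AG636 sample 3 stood apart from the rest of their groups, and Vehicle sample 4 also had the highest summed level of the factors. Without both samples, an alternative chosen after seeing the data, 23 of the 34 calls remained and the median of the factors was -0.43. Over all tested genes 798 of 10952 fell in that fit. Kit, the receptor used in the sort, averaged 163 CPM in Vehicle and 206 CPM in AG636, but the myeloid genes Cebpa and Mpo had at most 1 and 33 counts per sample. Of 9 mature myeloid markers, Itgam, Ly6g, Cd14 and Adgre1 had at most 5 counts, and the summed list ranged over 43.9 to 102 CPM in Vehicle and 15.9 to 201 CPM in AG636. Erythroid genes were high in both groups, with all 8 detected in every sample, Klf1 at 171 and 192 CPM, and a summed list of 2331 to 6141 CPM in Vehicle and 4752 to 6235 CPM in AG636 (two-sided exact permutation p = 0.4). The 8 progenitor markers summed to 871 to 986 CPM in Vehicle and 972 to 1175 CPM in AG636 (exact permutation p = 0.0571, adjusted over 6 lists 0.171), and the 6 B cell markers to 5.38 to 13.4 and 10.7 to 22.5 CPM (exact permutation p = 0.0571, adjusted 0.171). Megakaryocyte markers (5 genes, Gp1bb at 0 in every sample) summed to at most 18.1 CPM in Vehicle and 61.0 CPM in AG636, and T and NK cell markers (8 genes, Klrb1c and Ncr1 at most 1 count) to at most 14.9 and 24.6 CPM. Single markers of other cell types passed limma-voom as higher in AG636 in 2 cases, the erythroid globin gene Hbb-bt (17.8 to 37.4 CPM in Vehicle and 40.1 to 60.2 CPM in AG636, log2 fold change 0.90, adjusted p = 0.0238) and the B cell receptor gene Cd79a (0.291 to 1.06 and 1.596 to 3.18 CPM, 1.83, adjusted p = 0.0266), both with groups that did not overlap. The smallest p that 4 samples against 4 allow is 0.0286. The part of these cells in the changes below was not tested.

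UTP-A is the complex that binds the nascent precursor first and that is also needed for its transcription. All 6 of its genes fell, with a median log2 fold change of -0.60. Wdr43, the most abundant of the 6, stood at 348, 325, 353 and 348 CPM in Vehicle samples 1 to 4 and at 225, 234, 228 and 256 CPM in AG636 samples 1 to 4. The groups were well apart, and the change was -0.54 on the log2 scale (SE 0.08, adjusted p = 0.00252). Utp4 was measured at 81.7, 79.6, 82.0 and 75.0 CPM in Vehicle and 41.1, 42.6, 58.1 and 50.9 CPM in AG636. AG636 samples 1 and 2 were the lowest, and Utp4 fell by 0.74 (SE 0.11, adjusted p = 0.00404). Heatr1, a large repeat protein of the complex, went from 86.0, 79.9, 78.6 and 95.2 CPM to 51.9, 44.4, 44.5 and 64.0 CPM. Its highest AG636 value, in sample 4, was still under its lowest Vehicle value, and the log2 change was -0.74 (SE 0.13, adjusted p = 0.00543). Wdr75 was at 76.3, 82.1, 82.8 and 93.3 CPM in Vehicle and 59.7, 49.6, 47.6 and 56.5 CPM in AG636. Vehicle sample 4 was the highest and AG636 sample 3 the lowest of these, with a change of -0.65 (SE 0.10, adjusted p = 0.00439). Utp15 and Nol11, the remaining subunits, fell by 0.53 and 0.33. The Nol11 call (adjusted p = 0.0408) did not survive 7 of the 8 leave-one-out fits, all but the one without AG636 sample 4, with an adjusted p of up to 0.12 over the alternatives, although its groups did not overlap.

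UTP-B joins the particle next and contacts both the precursor and U3. 5 of its 6 genes fell, and the median over the complex was -0.51. Wdr36 was measured at 79.8, 73.6, 78.3 and 76.4 CPM in Vehicle and 54.9, 45.0, 52.3 and 56.2 CPM in AG636. The Vehicle values were tight, AG636 sample 2 was the lowest, and the change was -0.57 (SE 0.09, adjusted p = 0.00472). Pwp2 fell most in this complex, from 27.6 ± 3.51 to 16.0 ± 2.75 CPM (SD, n = 4 each), by 0.79 on the log2 scale. Wdr3, at 126 ± 5.21 CPM the most abundant subunit, fell to 97.4 ± 8.42 CPM, and its call was lost without Vehicle sample 2 or 3. The calls of Utp6 (-0.56) and Utp18 (-0.46) were lost in 3 and 6 of the 8 fits, Utp6 without Vehicle sample 1, 3 or 4 and Utp18 without Vehicle sample 2, 3 or 4 or AG636 sample 1, 2 or 3. Utp18 was the one factor of the 34 whose groups overlapped. Tbl3 did not pass (29.1 ± 4.19 and 22.2 ± 0.778 CPM, adjusted p = 0.0698), although its 4 AG636 samples lay below its 4 Vehicle samples, and it passed when Vehicle sample 3 was left out.

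The Mpp10 group, which binds the U3 snoRNA and helps pair it with the precursor, had 3 of 4 genes lower and a median of -0.42. Imp4 had the second smallest p of all factors, with 103, 102, 109 and 96.3 CPM in Vehicle and 59.4, 62.3, 60.3 and 63.7 CPM in AG636. The AG636 samples were close to each other and far below Vehicle, and the change was -0.74 (SE 0.08, adjusted p = 0.00149). Imp3, a partner of Imp4 in the same group, was at 161 ± 6.00 and 146 ± 14.3 CPM and did not pass (-0.14, 95% interval -0.34 to 0.05, adjusted p = 0.292). Mphosph10, the scaffold, fell by 0.54, and Utp3 fell by 0.30 with a call that held only without AG636 sample 3 or 4 among the fits leaving out 1 sample.

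Among the U3 snoRNP protein Rrp9, the UTP-C proteins Nol6 and Rrp7a, and the GTPase Bms1 with its partner Rcl1, all 5 genes fell, with a median of -0.57. Rrp7a fell most, by 0.87, from a low level of 12.3 ± 1.40 to 6.80 ± 1.55 CPM, and Bms1 least, by 0.29, from 161 ± 1.92 to 132 ± 12.8 CPM. The Bms1 call was lost in 7 of the 8 fits, all but the one without AG636 sample 4, and the Rrp9 call in 4, without Vehicle sample 1, 3 or 4 or AG636 sample 2. Rrp9 reached 51.0 CPM in Vehicle sample 4 and 34.0 to 38.1 CPM in the other Vehicle samples. The calls of Nol6 and Rcl1 held in every setting that kept the main threshold for the adjusted p. All 3 genes of the Nop14 group, whose members work together late in processome formation, also fell in every setting at that threshold. Noc4l fell by 0.61, Nop14 by 0.50 and Emg1, a methyltransferase of the small-subunit RNA, by 0.48.

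**Figure D1:**
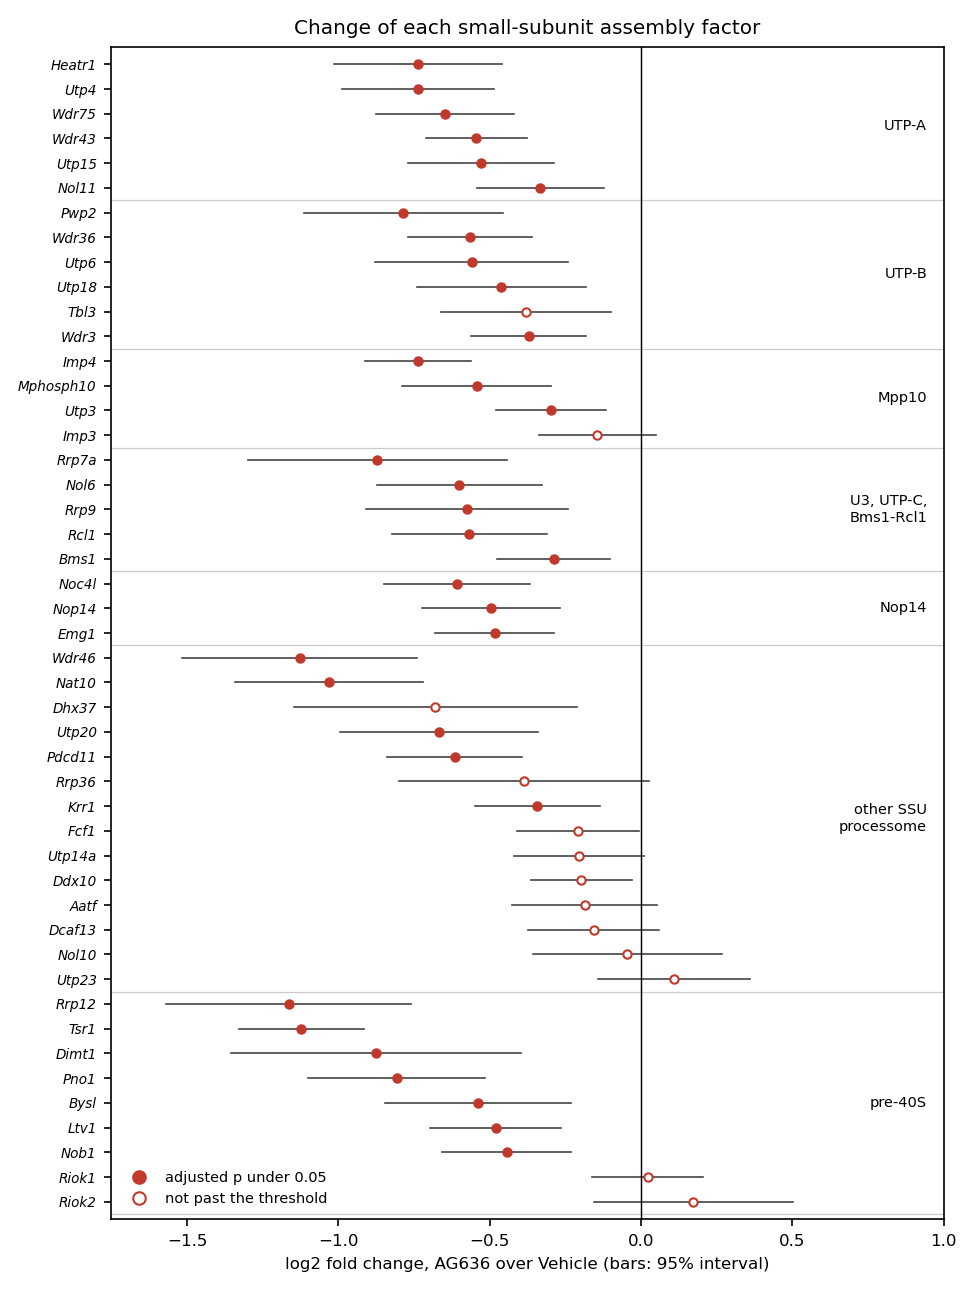
Log2 fold change of AG636 over Vehicle for each of the 47 factors (horizontal axis), grouped by complex, with bars for the 95% interval of limma-voom, filled points for an adjusted p under 0.05 and open points for the rest. 44 points lie left of 0, and most open points sit in the group of other SSU processome proteins.

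The 14 other SSU processome proteins were the most divided group, with 5 lower and a median of -0.27. Nat10, the enzyme that acetylates cytidines of the small-subunit RNA, was measured at 38.5, 45.6, 42.2 and 46.9 CPM in Vehicle and 20.5, 17.4, 19.8 and 27.3 CPM in AG636. Sample 4 was the highest in both groups, and the groups were far apart (-1.03, SE 0.14, adjusted p = 0.00235). Wdr46, the mouse counterpart of yeast Utp7, had 21.7, 19.8, 19.3 and 21.3 CPM in Vehicle and 7.46, 8.30, 8.94 and 13.4 CPM in AG636. AG636 sample 4 lay between the other AG636 samples and Vehicle, and Wdr46 changed by -1.13 (SE 0.18, adjusted p = 0.00411). Pdcd11, the counterpart of yeast Rrp5 and a factor shared by both subunits, was at 68.3, 77.3, 66.2 and 65.9 CPM in Vehicle and 42.0, 45.2, 42.0 and 52.0 CPM in AG636. No AG636 sample reached the Vehicle range, and the change was -0.62 (SE 0.10, adjusted p = 0.00481). Utp20 fell by 0.67 and Krr1 by 0.34, and the Krr1 call was lost in 5 of the 8 fits, without Vehicle sample 1, 3 or 4 or AG636 sample 1 or 2.

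The rest of this group did not pass. The helicase Dhx37, which releases U3 from the particle, came nearest at 11.1 ± 1.74 and 7.01 ± 1.75 CPM (-0.68, SE 0.21, adjusted p = 0.0563). DESeq2 did call it (adjusted p = 0.048), and so did limma-voom without AG636 sample 2. The helicase Ddx10 (-0.20, adjusted p = 0.105) and the nuclease-fold protein Fcf1 (-0.21, adjusted p = 0.153) had groups that did not overlap. Rrp36, Utp14a, which activates Dhx37, Aatf and Dcaf13 had log2 values of -0.39, -0.20, -0.19 and -0.16 with overlapping groups. Nol10 was among the 3 factors nearest to 0, at 45.7, 49.9, 47.2 and 59.0 CPM in Vehicle and 45.9, 47.9, 40.1 and 62.9 CPM in AG636. Sample 4 was the highest in both groups, and the difference of -0.05 (95% interval -0.36 to 0.27, adjusted p = 0.859) turned positive with library size alone and without Vehicle sample 4 or AG636 sample 3. Utp23, a relative of Fcf1, was at 36.6, 32.4, 34.0 and 39.3 CPM in Vehicle and 37.2, 36.7, 34.6 and 45.1 CPM in AG636. Its groups overlapped, with a difference of 0.11 (95% interval -0.14 to 0.36, adjusted p = 0.558).

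The pre-40S factors are grouped here as factors of later small-subunit maturation. 7 of 9 fell, with a median of -0.54, and both the largest log2 change and the smallest p of all 47 factors were here. Tsr1, a GTPase-like protein that keeps the immature subunit from starting translation, was measured at 94.6, 93.9, 103 and 95.8 CPM in Vehicle and 47.9, 38.8, 43.7 and 47.8 CPM in AG636. The samples of each group lay close together and the groups far apart, and Tsr1 went from 96.9 ± 4.38 to 44.6 ± 4.32 CPM (SD, n = 4 each; -1.12, SE 0.09, adjusted p = 0.00048). Rrp12, a factor of subunit export, was at 23.7, 22.1, 24.8 and 26.3 CPM in Vehicle and 11.4, 7.18, 11.0 and 14.5 CPM in AG636. AG636 sample 2 was the lowest, and the log2 change of -1.16 was the largest of the 47 (SE 0.18, adjusted p = 0.00428). Pno1, which escorts the nuclease Nob1 to the RNA, had 44.6, 41.8, 44.9 and 50.7 CPM in Vehicle and 30.5, 21.4, 23.0 and 29.6 CPM in AG636. AG636 samples 1 and 4 were higher than samples 2 and 3, all below Vehicle, and the change was -0.81 (SE 0.13, adjusted p = 0.00472).

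Nob1 itself, the nuclease that makes the final cut of the small-subunit RNA, fell by 0.44, and Ltv1, a factor of late subunit maturation, fell by 0.48. The dimethyltransferase Dimt1 fell by 0.88 from a low level of 11.0 ± 1.31 to 6.10 ± 1.86 CPM, and Bysl by 0.54 from 41.1 ± 3.03 to 28.5 ± 6.02 CPM. The Dimt1 call was lost in 3 of the 8 fits, without Vehicle sample 3 or 4 or AG636 sample 4, and the Bysl call in 7, all but the one without AG636 sample 4. The kinases Riok1 and Riok2 did not pass. Riok1 was at 82.0, 80.1, 80.9 and 75.2 CPM in Vehicle and 85.1, 82.0, 83.1 and 73.3 CPM in AG636. Its difference of 0.02 was the smallest of all factors (95% interval -0.16 to 0.20, adjusted p = 0.887), and the interval excluded a fall of the size of the group median. Riok2 averaged 64.2 ± 6.89 CPM in Vehicle and 73.4 ± 17.2 CPM in AG636, where sample 1 reached 98.8 CPM and the other AG636 samples 61.9 to 69.2 CPM (0.17, 95% interval -0.16 to 0.50, adjusted p = 0.471).

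**Figure D2:**
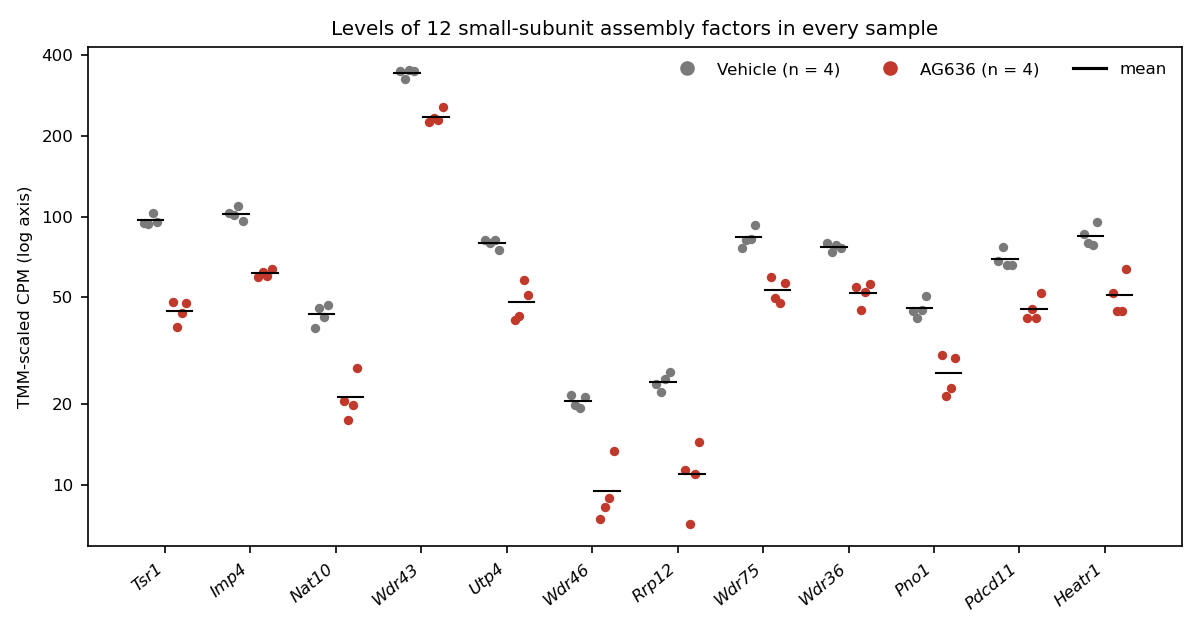
Level of the 12 factors with the smallest p-values in each of the 4 Vehicle (grey) and 4 AG636 (red) samples, in TMM-scaled CPM on a log axis, with a bar at each mean. In each of the 12 all AG636 points lie below all Vehicle points, from Wdr43 near 344 and 236 CPM down to Wdr46 near 20.5 and 9.54 CPM.

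Every AG636 sample showed the decrease. The median difference of the 47 factors from their Vehicle means was -0.45, -0.57, -0.56 and -0.39 on the log2 scale in AG636 samples 1 to 4, and -0.02, -0.04, 0.01 and 0.09 in Vehicle samples 1 to 4. In the same AG636 samples 39, 39, 44 and 41 factors lay below every Vehicle sample. The matching share of all tested genes was not counted for single samples, so these counts have no background beside them. The summed level of the 47 was 3693 ± 104 CPM in Vehicle and 2750 ± 161 CPM in AG636 (SD, n = 4 each), with ranges of 3608 to 3833 and 2600 to 2952 CPM. Among the AG636 samples, sample 4 held the highest value for 23 factors and sample 2 the lowest for 21. By group, the medians in AG636 samples ran from -0.67 to -0.45 for UTP-A, from -0.80 to -0.40 for the pre-40S factors and from -0.38 to -0.24 for the other SSU processome proteins. Differences between these groups were not tested. Factors with a higher level changed somewhat less (Spearman 0.318, Pearson 0.322 between Vehicle level and log2 fold change over 47 factors that share the same 8 libraries), which is a description across genes.

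**Figure D3:**
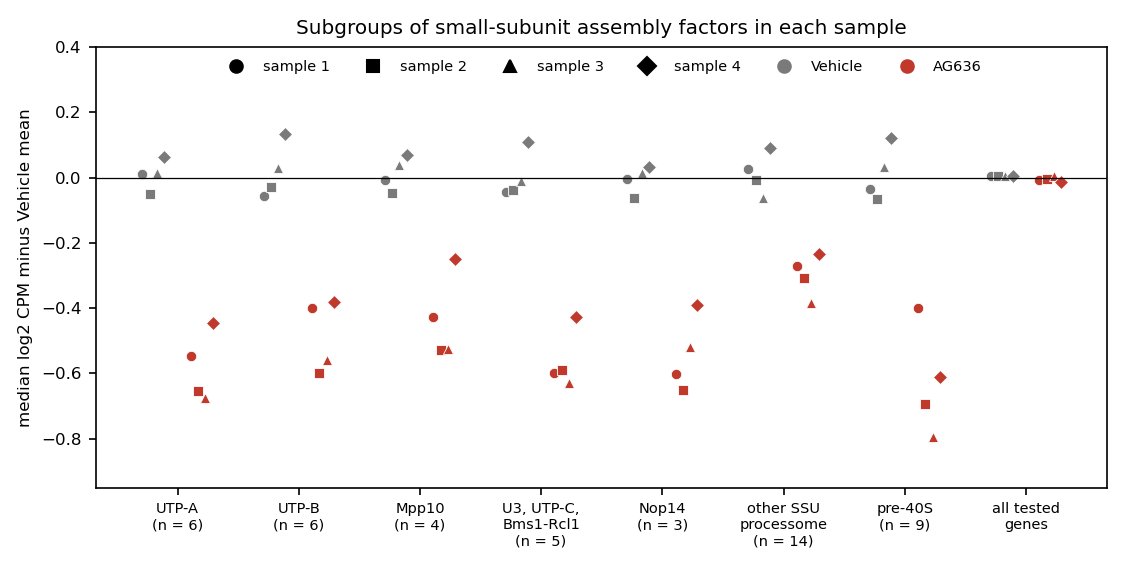
Median log2 CPM of each complex or group in every sample, as the difference from the Vehicle mean of each gene, with Vehicle in grey, AG636 in red and a symbol for each sample number; n is the number of genes. All AG636 points of the 7 groups lie below all Vehicle points, while all tested genes sit near 0 in every sample.

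The count of factors called depended little on the test and more on the scaling. edgeR's quasi-likelihood test called the same 34 (8.41% of all tested genes fell) and DESeq2 called these and Dhx37 (9.3% of all tested genes fell). With library size alone 25 of the 34 were called (5.23% of all tested genes fell), and the median of the factors was -0.47. The scaling also moved the balance over all tested genes, from 926 lower and 597 higher calls with TMM factors (60.8% of calls lower) to 571 lower and 918 higher with library size alone (38.3% lower). The calls of 24 factors held in each fit that left out 1 sample. Those of 23 held in every setting that kept the main threshold for the adjusted p, so the stricter threshold is not among these settings.

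The genes around the assembly factors in ribosome production were read from 6 further lists, which contain no member. In the same fit 8.49% of all tested genes fell. Of 16 other small-subunit factors 4 fell (median -0.30), the one with the smallest p being Esf1 at 228 and 176 CPM (-0.37, SE 0.09, adjusted p = 0.0187). Of 46 large-subunit assembly factors 27 fell (median -0.48), led by the nucleolar GTPase Gnl3, or nucleostemin, at 369 and 182 CPM (-1.03, SE 0.11, adjusted p = 0.00127). All 11 proteins of the box C/D and H/ACA particles, which carry the guide RNAs for modification of ribosomal RNA, and of the nucleolar proteins listed with them fell (median -0.68), with the smallest p for nucleolin, Ncl, at 2097 and 1207 CPM (-0.80, SE 0.08, adjusted p = 0.00106). Of 14 genes of RNA polymerase I and its factors 6 fell (median -0.48), with the subunit gene Cd3eap at 59.2 and 28.8 CPM (-1.07, SE 0.16, adjusted p = 0.00318). Of 13 tested RNA exosome genes 6 fell (median -0.19), with Exosc1 at 53.7 and 30.5 CPM (-0.82, SE 0.12, adjusted p = 0.00271). In contrast to the factors that assemble the subunit, the 33 proteins that remain in it had a median of -0.04. Rps2 alone among them fell, at 1132 and 890 CPM (-0.36, SE 0.11, adjusted p = 0.0482), with overlapping groups, and edgeR called none of the 33, although 4 passed without AG636 sample 2. Without AG636 sample 2, 750 of 11081 tested genes fell. No list rose in any gene past the threshold, and differences between lists were not tested. Of the 16 other small-subunit factors 0 to 2 passed when any 1 Vehicle sample or AG636 sample 1 was left out. Of the RNA exosome genes 2 or 3 passed when any 1 Vehicle sample was left out. Over all tested genes, the count that fell in these fits ran from 467 of 11123 (without Vehicle sample 3) to 639 of 11065 (without AG636 sample 1). With library size alone 0 of the 16 other small-subunit factors and 3 RNA exosome genes passed, and with no filter 1 and 4 did. Over all tested genes 5.23% fell with library size alone, and 736 of 23416 fell with no filter. Reads of ribosomal protein genes can be shared with near-identical pseudogenes, and how such reads were counted is not stated. Among the 33 of the small subunit, Rps27, Rps7 and Rps23 were lowest in Vehicle, at 4.75, 10.1 and 14.4 CPM. The median of that list in Vehicle was 1065 CPM. The part of shared reads in these values was not tested.

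**Figure D4:**
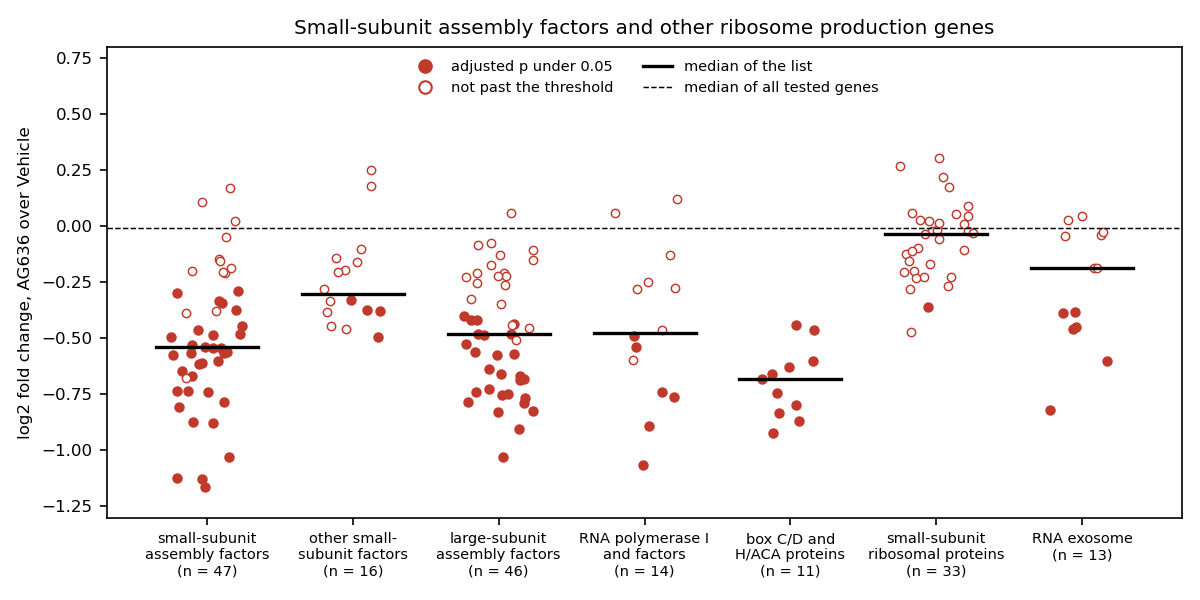
Log2 fold change of AG636 over Vehicle for every tested gene of the assembly factors and of 6 other lists of ribosome production genes, with filled points for an adjusted p under 0.05, open points for the rest, a thick line at the median of each list and a dashed line at the median of all tested genes. The median is -0.54 for the 47 assembly factors and -0.04 for the 33 small-subunit ribosomal proteins.

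The start regions of the factors were compared with those of other genes. 39 of 47 factors had a 300-base RefSeq promoter window. The E-box CACGTG was present in 12 of 39 (30.8%), compared with 12.1% of the 8154 tested genes with a window and 7.15% of all 32851 windows. The 12 were Tsr1, Imp4, Wdr43, Utp4, Wdr46, Pno1, Utp20, Utp18, Ltv1, Nol11, Rrp7a and Aatf, and 11 of them, all but Aatf, fell. Their median log2 fold change was -0.70, and it was -0.50 for the 27 factors without the E-box, of which 19 fell. Over all tested genes, 13.9% of those with an E-box and 8.33% of those without it fell. For the ETS motif these shares were 11.99% and 8.66%. They were 11.69% and 8.84% for the YY1 core, and 10.92% and 8.96% for the palindrome. A higher share with the motif was thus not particular to the E-box, and differences between motifs were not tested. The ETS motif CCGGAAGT was present in 13 of 39 (33.3%), compared with 10.7% of tested genes and 3.89% of all windows, and factors with it had a median of -0.48 against -0.54 for those without. The YY1 core AAGATGGC was found in Imp4 alone (2.56% of 39), compared with 6.08% of tested genes and 2.75% of all windows. Only exact letters were counted for each motif, so shorter or near matches to any of the motifs were not searched. The printed Tsr1 and Nat10 windows both hold ATGGCGGC, which shares ATGGC with the YY1 core and was not counted. TCTCGCGA was found in Tsr1 and Nop14 (5.13%), compared with 2.92% and 0.995%. At least 1 of the 4 motifs was present in 21 of 39 (53.8%) and in 28.2% of tested genes, and no match overlapped one of a different motif in these windows. In Wdr46, 2 ETS matches on opposite strands overlapped each other, at bases 189 to 196 and 193 to 200. A match describes the letters of the window and not the binding of a factor.

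**Figure D5:**
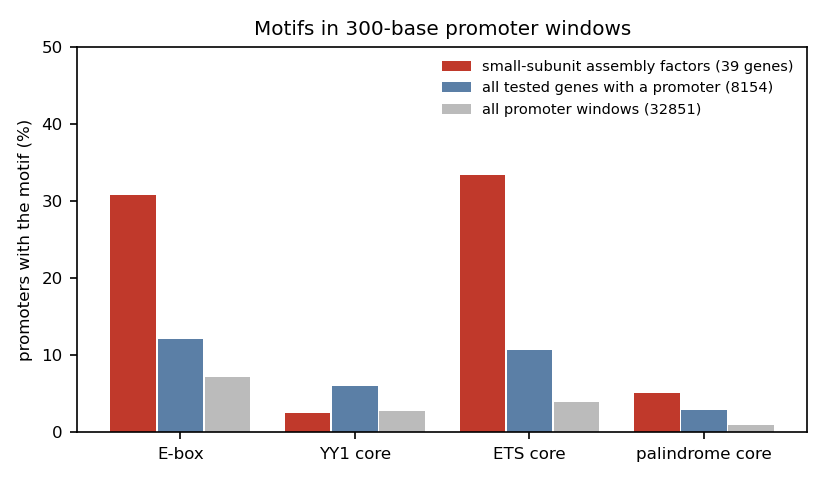
Share of 300-base promoter windows that hold the exact letters of each of 4 motifs on either strand, in percent. Bars are for 39 small-subunit assembly factors (red), the 8154 tested genes with a window (blue) and all 32851 windows (grey). The E-box and the ETS motif are present in 30.8% and 33.3% of the factors, above the other bars, and the YY1 core in 2.56%.

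Many of the genes start back to back with another. 18 of 47 factors (38.3%) had a gene on the opposite strand starting within 1000 bases upstream or downstream, compared with 26.4% of all tested genes. Where there were several, the one with the most counts was taken, and 16 of these partners were tested. 5 of them fell (Slc25a32, Phb2, Ddx51, Chtf8 and Pfdn6) and 1 rose (Ankra2), while 8.49% of all tested genes fell. Ddx51 is also among the large-subunit assembly factors read above. The median of the partners, -0.13, stood against -0.53 for the factors beside them, of which 13 fell. Wdr46 and its neighbour Pfdn6 both fell (-1.13 and -0.75), whereas Utp15 fell by 0.53 beside an Ankra2 that rose by 0.41. At the other end, 12 factors had another gene over their last 1000 bases, and in 5 of these (Bysl, Dimt1, Emg1, Pno1 and Rrp7a) the other gene had more counts, so their values are uncertain where reads were counted without strand, which is not stated. None of those 5 neighbours fell, and Serhl, beside Rrp7a, rose by 0.60. Among the 35 factors without such an overlap 25 fell, with a median of -0.53.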

How the data were processed

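RNA was measured in 4 Vehicle and 4 AG636 samples, grouped by their titles. The values are raw read counts per gene, deposited by the authors, who trimmed QuantSeq 3′ reads with cutadapt (1.9.1 per the submitters' processing notes), mapped them to mm10 with HISAT2 (2.0.4) and counted them with featureCounts of Subread (1.5.0-p3). Use of strand and of reads mapping to several places is not stated. Genes were kept by filterByExpr (minimum count 10), which left 10911 of 54838, scaled by TMM factors (edgeR 4.0.16) and compared between groups, with no further term, by limma-voom in R 4.3.3 (limma 3.58.1), since the methods of the study name limma. The fit was also run on simulated counts, with as many genes raised as lowered and no difference in TMM factors set between groups. That run therefore could not check the scaling. Two-sided p-values received Benjamini-Hochberg adjustment across every tested gene (threshold 0.05). Log2 CPM carries a prior count of 0.5. Totals of 6120030 to 7162036 counts per sample limit precision for low genes, and 3 counts correspond to 0.434 to 0.479 CPM. Replicates were compared by chi-square, and no pair agreed within sampling noise. Symbols came from a name table (54723 of 54838 matched), and promoter windows from RefSeq (GRCm38.p6, 39 of 47 factors).

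The 47 factors and the other lists were chosen with earlier results of these data known. All 47 may be named. CPM in every sample is given for at most 12 called factors per direction with the smallest p and for the 3 nearest to 0, and the smallest-p gene is named in each other list. Genes named beyond that, the neighbours at shared starts and ends and single markers, were chosen after their values were seen. Alternatives were edgeR's quasi-likelihood test, DESeq2 (1.42.0), RLE factors, library size alone, no filter, 10 counts in every sample, a replicate block, a threshold of 0.01, leaving out single samples, and, added after seeing the data, Vehicle sample 4 and AG636 sample 3 left out together.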

Additional observations from a re-analysis of the deposited data

Results flagged for a closer look

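In 6 of 94 groups of 4 samples, 1 sample lay far from the other 3 on the log2 CPM scale by Dixon's gap test at the 95% level. Chance alone gives about 1 in 20, or 4.7 of 94. Wdr43 was 8.35 in Vehicle sample 2 and 8.44 to 8.46 in the other Vehicle samples. Utp18 was 5.43 in Vehicle sample 1 and 5.69 to 5.73 in the others, and without that sample its change was -0.54 (adjusted p = 0.0397, limma-voom). Ddx10 was 7.32 in Vehicle sample 1 and 7.41 in each of the others, and it did not pass without it (-0.22, adjusted p = 0.147). Nob1 was 6.02 in Vehicle sample 4 and 6.12 to 6.14 in the others. Ltv1 was 5.42 in AG636 sample 2 and 5.68 to 5.72 in the other AG636 samples, and it passed without that sample (-0.41, adjusted p = 0.0200). Bysl was 5.51 in Vehicle sample 4 and 5.30 to 5.33 in the others, and its call was lost without that sample (-0.47, adjusted p = 0.0806).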

How the results depend on the processing

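The number of factors called was 34 in the main fit, 34 with edgeR, 35 with DESeq2, 32 with RLE factors, 32 with a minimum of 10 counts in every sample, 29 with no filter and 25 with library size alone, and 0 rose in any of these. Over all tested genes, 835 of 10911 fell with RLE factors and 838 of 9937 with a minimum of 10 counts in every sample. With no filter 736 of 23416 fell. At an adjusted p under 0.01 the number of factors called was 15, and 435 of all tested genes were called in place of 1523. With each sample left out in turn it ranged from 25 (without Vehicle sample 3 or 4) to 33, the median log2 fold change from -0.57 to -0.47 and the count over all tested genes from 688 to 1706. Without Vehicle sample 1, 2, 3 or 4 that count was 798, 918, 688 and 1010. The median moved to -0.43, with 23 factors called, when Vehicle sample 4 and AG636 sample 3 were both left out. In that fit 798 of 10952 tested genes fell. The sign of Nol10 reversed to 0.023 with library size alone, 0.04 without AG636 sample 3, 0.05 without Vehicle sample 4 and 0.15 without both, and that of Riok1 to -0.0051 without AG636 sample 1. Over the fits that left out 1 sample, Nol10 ranged from -0.16 to 0.048 and Riok1 from -0.0051 to 0.085. The cause was not tested. 43 of 47 factors were negative in every setting. Deviations of same-numbered samples from their group means correlated at -0.134 to 0.198, inside the range of -0.320 to 0.248 for different numbers. Pairing by replicate number was not tested beyond that. With the replicate number as a block 32 factors were called (median -0.53; Bms1 and Dimt1 were lost), and 1446 of all tested genes. Depth limits the low factors most: Dimt1, Rrp7a, Rrp36 and Dhx37 averaged at or under 12.3 CPM in Vehicle. Wdr46 and Rrp12, with log2 changes of -1.13 and -1.16, averaged 9.54 and 11.0 CPM in AG636, so depth limits the size of these changes as well.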
